A study of Homo sapiens with 6 samples.

Results

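The transcripts of the human mitochondrial genome were described in cells labelled as endothelial, with and without LPS. LPS is lipopolysaccharide, a glycolipid from the envelope of Gram-negative bacteria. The members are all genes whose name begins with MT-, and there are 37 of them among 61556 annotated genes: 13 mRNAs, 2 rRNAs and 22 tRNAs. RNA-seq covered 6 libraries, 3 labelled as controls and 3 of cells kept for 12 h with LPS at 1000 ng/ml. The control titles carry the same 12 h, what the controls received is not stated, and all cells were grown in DMEM with fetal bovine serum. The cell line field gives EA.hy926, an established hybrid of an umbilical vein endothelial cell and the A549 lung carcinoma line, whereas the titles also name umbilical vein endothelial cells, so the labels do not settle which was used. Groups were read from the titles, because the treatment field reads Sepsis for every library, controls included. No label ties the replicates to separate cultures, and the spread behind each p-value may therefore be technical.

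Mitochondrial DNA is a small circle that is transcribed from both strands into long precursors. The tRNAs lie between most of the mRNAs and rRNAs, and their excision releases the individual RNAs, which are then polyadenylated, stabilised or degraded at different rates. The mRNAs encode core subunits of respiratory complexes I, III and IV and of ATP synthase, whose other subunits are nuclear. In most cells the mitochondrial rRNAs are among the most abundant RNAs of the organelle.

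The values are the authors' FPKM (fragments divided by transcript length and by the library's mapped fragments), a per-length scale. Genes are set beside each other on it only as listed, within the limits given below. On GRCh38 coordinates, 36 of the 37 members had the same start and end as in GENCODE 29, with 28 on the plus strand and 9 on the minus strand. The minus-strand members were MT-ND6 and 8 tRNAs. A tRNA of 59 to 75 bases is shorter than a usual sequenced fragment, which makes its FPKM less certain than that of an mRNA.

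The 6 tRNAs with the highest levels are shown because they stood apart from the other 16, and because 5 of them are on the minus strand. Capitals mark the anticodon, found as letters 3 to 5 of a 7-base loop closed by a stem in which at least 4 of 5 bases pair. The anticodons searched were TGT for threonine, GCA for cysteine, GTT for asparagine, GTA for tyrosine, TGC for alanine and TGG for proline. Sequences are DNA letters from the GENCODE 29 transcripts, 5′ to 3′.
MT-TT: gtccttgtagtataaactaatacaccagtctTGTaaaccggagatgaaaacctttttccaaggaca
MT-TC: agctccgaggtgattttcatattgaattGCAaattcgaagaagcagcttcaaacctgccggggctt
MT-TN: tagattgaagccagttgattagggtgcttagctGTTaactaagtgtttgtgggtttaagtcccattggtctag
MT-TY: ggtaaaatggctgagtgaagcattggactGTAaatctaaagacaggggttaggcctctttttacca
MT-TA: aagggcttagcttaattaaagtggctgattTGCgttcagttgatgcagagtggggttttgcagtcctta
MT-TP: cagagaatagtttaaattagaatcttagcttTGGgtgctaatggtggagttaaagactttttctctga
On the mitochondrial chromosome, MT-TT (15888 to 15953, plus strand) and MT-TP (15956 to 16023, minus strand) face each other after MT-CYB. MT-TA (5587 to 5655), MT-TN (5657 to 5729), MT-TC (5761 to 5826) and MT-TY (5826 to 5891) form 1 cluster on the minus strand.

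Some members share bases, so a fragment there cannot be given to 1 gene by position. Of 5 overlapping pairs, the longest overlap is between the ATP synthase genes MT-ATP8 and MT-ATP6, 46 bases at positions 8527 to 8572, with the start codon of MT-ATP6 and the stop codon of MT-ATP8 in capitals.
MT-ATP8 and MT-ATP6: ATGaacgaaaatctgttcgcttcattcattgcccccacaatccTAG
The complex I genes MT-ND4L and MT-ND4 share 7 bases at positions 10760 to 10766. Of the 13 annotated mRNA sequences, 7 end in a complete stop codon and 6 end in T or TA, a stop that polyadenylation completes in mitochondria.

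Levels differed widely between neighbours on the same strand. MT-CO1, the catalytic subunit of cytochrome c oxidase (complex IV), was the highest member in every library at 795 to 1041 FPKM. MT-ATP8, which follows it on the same strand after MT-CO2, stood at 0.0431 to 0.0655 FPKM. The listed level of MT-CO1 was 15157 to 21521 times that of MT-ATP8 in the same library, which is not a ratio of processed RNA. Of the mRNAs, 9 had a mean of at least 1 FPKM, and MT-ND4, MT-ND4L, MT-ATP6 and MT-ATP8 were below it.

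**Figure D1:**
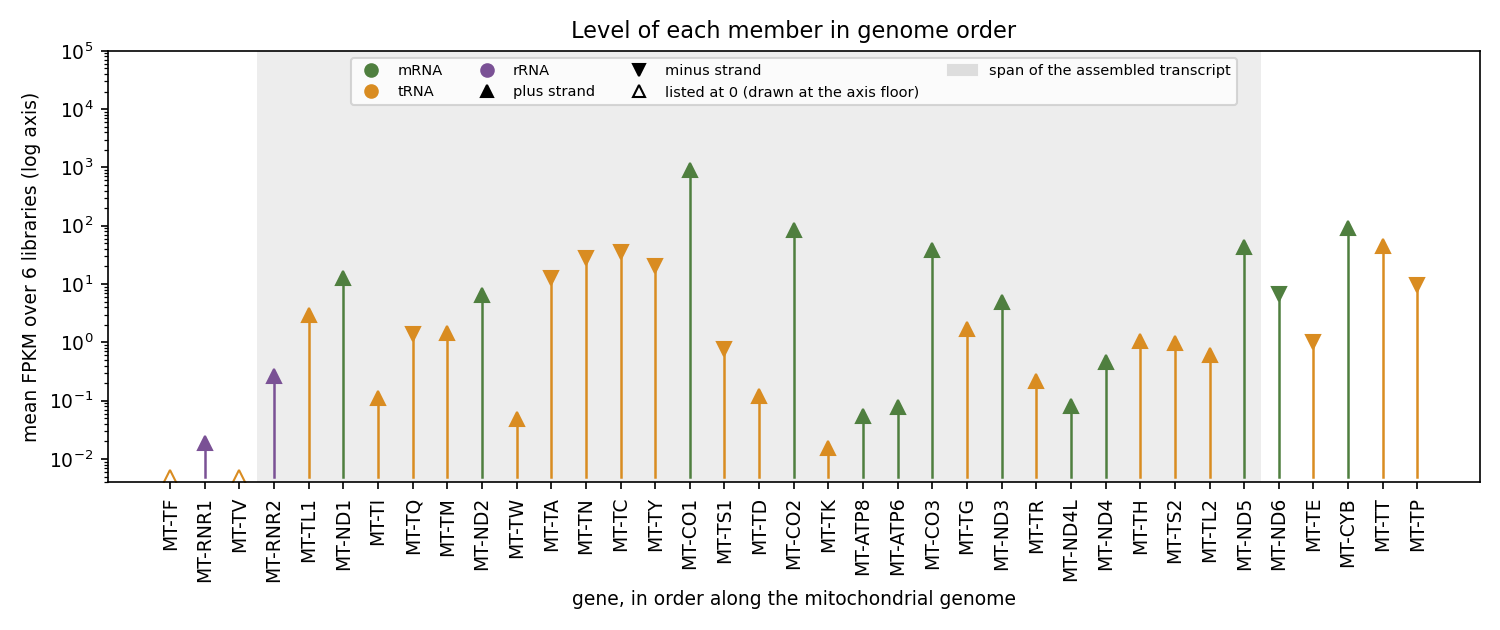
Mean FPKM over 6 libraries (log axis) of the 37 members in their order along the mitochondrial genome, upward triangles for the plus strand, downward for the minus strand, green for mRNAs, orange for tRNAs, purple for rRNAs, open where listed at 0, with a grey background over the span of the assembled transcript described in the text. MT-CO1 at 891 FPKM stands far above MT-ATP8, MT-ATP6 and MT-ND4L, which are under 0.1 FPKM, and MT-TA, MT-TN, MT-TC and MT-TY form a block of minus-strand tRNAs between 12.7 and 35.9 FPKM.

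The gene table places MT-ND5, a proton-pumping subunit of complex I, at positions 1671 to 14148, whereas its annotated position is 12337 to 14148. The transcript table holds 38 mitochondrial rows, 1 of which is a transcript assembled by the authors over that longer span of 12478 bases and assigned to MT-ND5. Its exons are not given. It stood at 26.3, 33.8 and 28.95 FPKM in control 1, 2 and 3, and in LPS 1, 2 and 3 at 29.7, 32.2 and 31.9 FPKM. That was 62.7% to 72.9% of the MT-ND5 gene value, so most of the level listed for MT-ND5 belongs to a transcript that spans other genes.

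Of 23 plus-strand members inside the span, 12 had a mean below 1 FPKM, among them the rRNA MT-RNR2 and 4 of 11 mRNAs. Outside the span, the plus-strand MT-CYB and MT-TT stood at 90.3 and 44.5 FPKM, and MT-TF, MT-RNR1 and MT-TV were at or near 0. The 6 minus-strand members inside the span had means of at least 0.768 FPKM. The part of the assembled transcript in these levels was not tested, and the mRNA levels are read here as the table lists them, not as the amounts of processed RNA.

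Summed FPKM of all genes ranged from 427920 to 483345 per library and that of protein-coding genes from 256047 to 264878. FPKM carries no read depth, and whole reads could not be recovered, so the depth behind each value is unknown. Among small noncoding RNAs, RN7SL1, RN7SK and RPPH1 made up 8.12% to 11.6%, 8.77% to 10.6% and 5.89% to 8.21% of the summed FPKM of all genes. Endothelial markers were present, summing over 6 genes to 253 to 342 FPKM in controls and 303 to 377 FPKM with LPS. The epithelial and A549 list summed to 107 to 120 and 72.4 to 88.1 FPKM, nearly all from KRT8, KRT18 and KRT19, while EPCAM, CDH1 and SFTPB were at most 0.0693 FPKM. Fibroblast and smooth muscle markers summed to 3364 to 3758 and 3344 to 3709 FPKM, with the collagen gene COL1A1 at 1277 to 1565 FPKM, above MT-CO1. In every library that sum was far above the endothelial sum, so these markers do not settle the cell type. The leukocyte gene PTPRC was listed at 0 throughout. No marker passed the test described next (limma). The groups did not overlap for 3 of 3 epithelial markers tested (KRT8, KRT18 and KRT19), all lower with LPS. Also lower without overlap were 2 of 6 fibroblast markers (COL3A1 and LUM) and 1 of 1 leukocyte marker tested (CD14). Higher without overlap were 3 of 6 endothelial markers (PECAM1, TEK and CLDN5). Of all genes tested, 15.9% had no overlap, a smaller share than in each of these lists. The part of these markers in the results on mitochondrial genes was not tested.

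The design asks whether any gene differs between LPS and control libraries. Genes with a mean of at least 0.5 FPKM were tested on log2(FPKM + 0.5) with limma, two-sided, with Benjamini-Hochberg adjustment over all 15944 genes tested and a threshold of 0.05. Of the 37 members, 24 passed that filter: 9 mRNAs, 15 tRNAs and no rRNA. No mitochondrial transcript passed the threshold (0 of 24), where 8 of all genes tested, 0.0502%, did (0.0376% higher and 0.0125% lower with LPS). At an unadjusted p under 0.05 there was 1 of 24, the tRNA MT-TQ, against 9.21% of all genes tested. The groups did not overlap for 1 of 24, MT-CO2, against 15.9% of all genes tested. In these bulk libraries, a different share of cells rich in mitochondrial RNA and a different amount of it per cell could not be told apart.

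**Figure D2:**
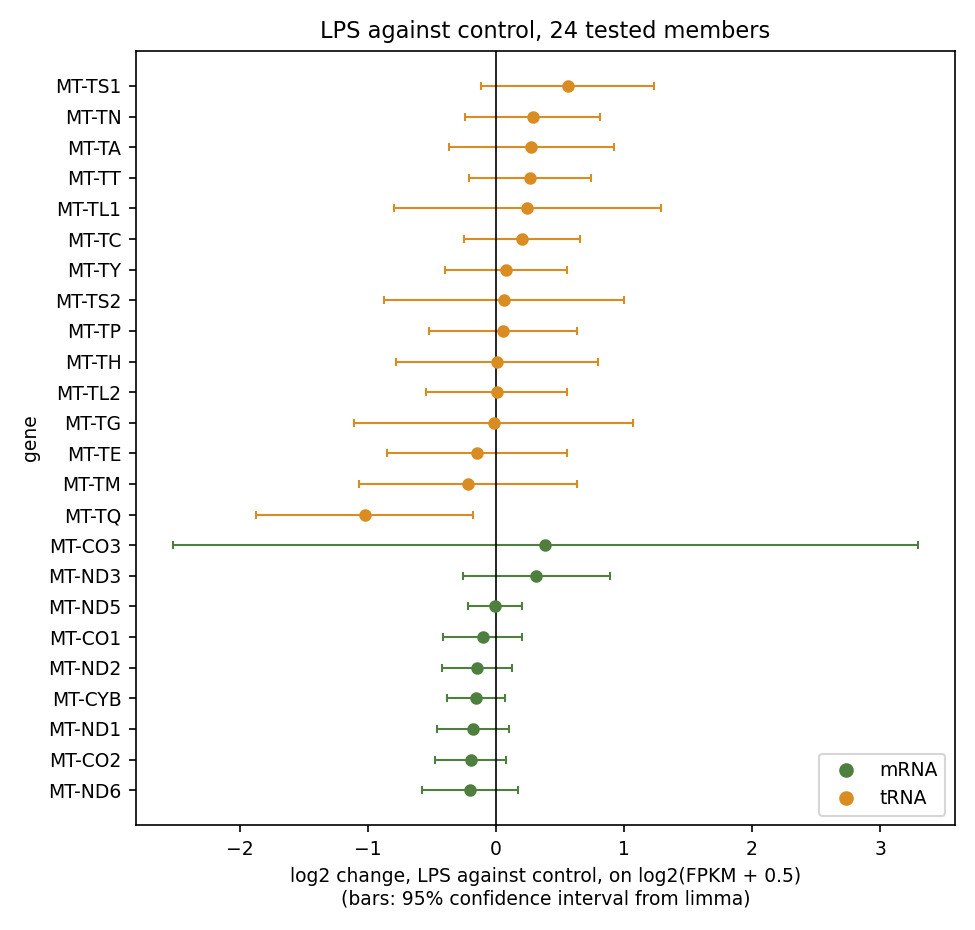
Log2 change of LPS against control on the log2(FPKM + 0.5) scale for the 24 tested members, points for the estimate and bars for the 95% confidence interval from limma. Every interval but that of MT-TQ includes 0, and the interval of MT-CO3 is the widest, from −2.52 to 3.29.

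Among the mRNAs, 7 of 9 had a log2 change below 0, and the median was −0.15, against −0.0053 over all genes tested, of which 51.1% were below 0. Relative to the control mean, the median of the 9 mRNAs was −0.15, −0.10 and −0.12 on the log2 scale in LPS 1, 2 and 3, and 0.014, −0.11 and 0.086 in control 1, 2 and 3. Control 2 therefore lay among the LPS libraries. Without LPS 1 the median log2 change was −0.078.

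The subunits of complex IV differed most in how they behaved between libraries. MT-CO1 (positions 5904 to 7445) stood at 928, 803 and 1041 FPKM in the controls and 828, 795 and 953 FPKM with LPS. The groups overlapped, and the log2 change of −0.10 (SE 0.13, limma adjusted p = 0.85) had a 95% interval for the ratio from 0.752 to 1.15. MT-CO2 (7586 to 8269), which carries the copper site that accepts electrons from cytochrome c, stood at 102, 85.0 and 87.9 FPKM in controls. With LPS it was at 84.5, 84.9 and 70.3 FPKM. The lowest control (85.003) and the highest LPS value (84.948) almost touched, so the lack of overlap rests on a small gap, and LPS-lower values without overlap were found in 7.76% of all genes tested. Its log2 change was −0.20 (SE 0.12, limma adjusted p = 0.66).

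MT-CO3 (9207 to 9990), the third core subunit of complex IV, stood at 4.97, 64.0 and 23.6 FPKM in control 1, 2 and 3. With LPS it stood at 3.70, 62.4 and 71.4 FPKM in LPS 1, 2 and 3. Low and high values occurred in both groups, with control 1 and LPS 1 both under 5 FPKM. The highest library was 19.3 times the lowest. The SD of its log2 values within groups was 2.07, larger than in 99.9% of all genes tested, and among 4507 genes with a mean of at least 10 FPKM it ranked 9 from the top. The log2 change was 0.39 (SE 1.24, limma adjusted p = 0.95), and without 1 library at a time it ran from −0.56 to 1.72, with a negative sign without control 1, LPS 2 or LPS 3.

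**Figure D3:**
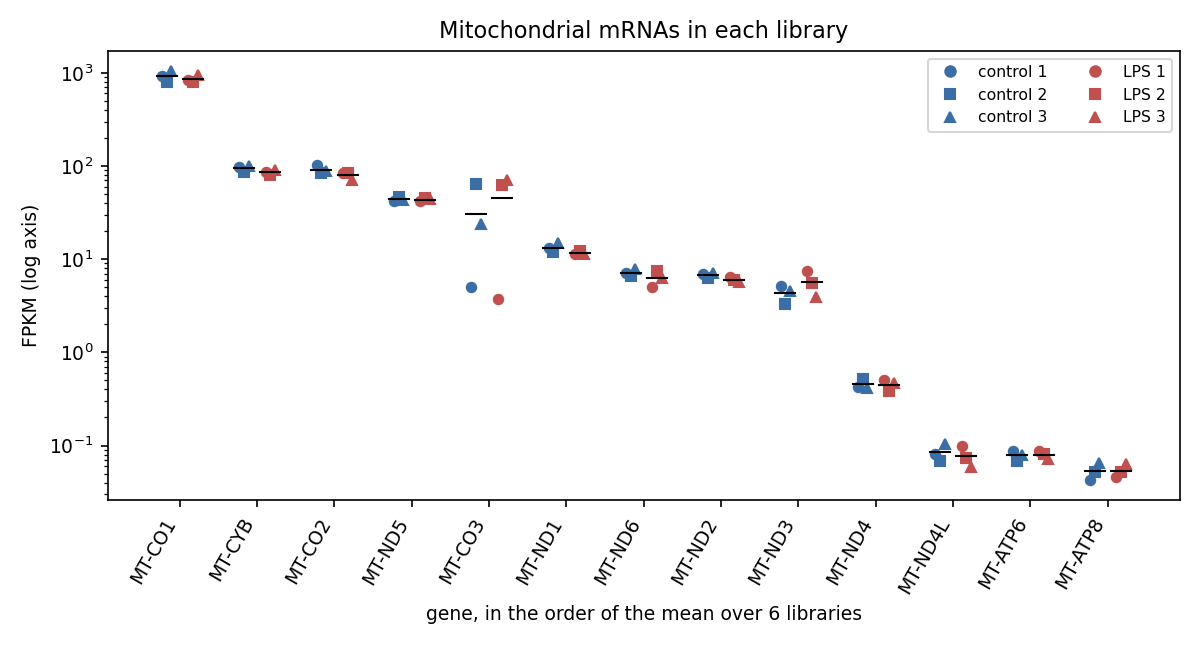
FPKM (log axis) of the 13 mitochondrial mRNAs in each of 3 control (blue) and 3 LPS (red) libraries, with black lines for group means. Most genes hold a narrow band across libraries, whereas MT-CO3 runs from 3.70 to 71.4 FPKM.

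Some other quantities divided the 6 libraries as MT-CO3 did, a pattern noticed after the values were seen. The summed levels of the 22 tRNAs and of the 13 mRNAs did not. Control 1, control 3 and LPS 1 were the 3 lowest libraries for MT-CO3, for the assembled transcript of MT-ND5 and for the summed level of MT-TA, MT-TN, MT-TC and MT-TY. That sum was 73.0, 126 and 74.7 FPKM in the controls and 92.9, 112 and 104 FPKM with LPS. The same 3 libraries had the lowest summed FPKM of genes outside the protein-coding table, at most 214415 against at least 218466 in the other libraries. The division cut across the treatment groups, and its part in the level of MT-CO3 was not tested.

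**Figure D4:**
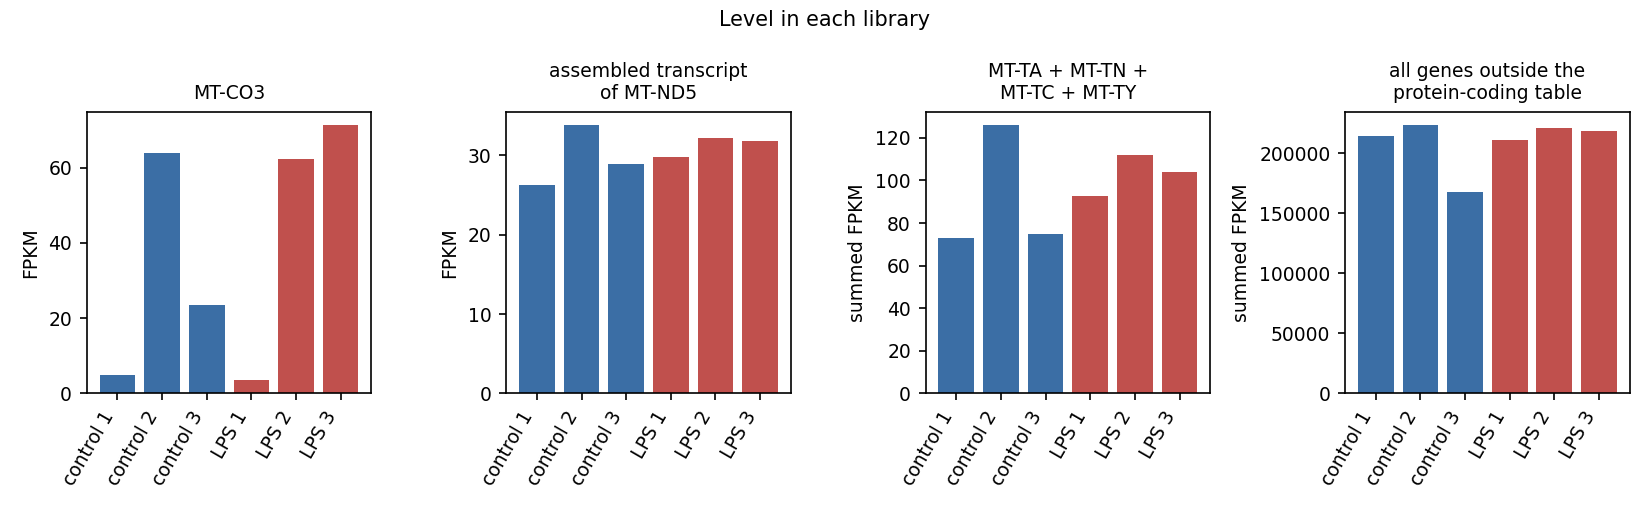
FPKM of MT-CO3 and of the assembled transcript of MT-ND5, summed FPKM of the cluster MT-TA, MT-TN, MT-TC and MT-TY, and summed FPKM of all genes outside the protein-coding table, 1 bar per library, blue for control and red for LPS. In each panel control 1, control 3 and LPS 1 are the 3 lowest bars.

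MT-CYB (14747 to 15887), the cytochrome b of complex III and its single mitochondrial subunit, stood at 98.4, 87.2 and 100.03 FPKM in controls and 85.2, 80.7 and 90.03 FPKM with LPS. Only LPS 3 lay above the lowest control. The group means were 95.2 ± 6.98 and 85.3 ± 4.67 FPKM (SD, n = 3), and the log2 change of −0.16 (SE 0.10, limma adjusted p = 0.67) had a 95% interval for the ratio from 0.767 to 1.05. This gene lies outside the span of the assembled transcript. Its range over the 6 libraries overlapped that of MT-CO2, so the order of these genes is not fixed.

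Of the 7 subunits of complex I, 5 were tested. MT-ND1 (3307 to 4262), next to the quinone site, stood at 13.1, 11.8 and 15.0 FPKM in controls and 11.3, 12.3 and 11.3 FPKM with LPS. MT-ND2 stood at 6.85, 6.30 and 7.09 FPKM and 6.4995, 5.96 and 5.62 FPKM. In both genes the groups overlapped, with log2 changes of −0.18 (SE 0.12) and −0.15 (SE 0.12). MT-ND3, a small subunit of the membrane arm, stood at 5.17, 3.34 and 4.60 FPKM in controls and 7.54, 5.50 and 3.93 FPKM with LPS, a log2 change of 0.31 (SE 0.25).

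MT-ND5 as listed for the gene was the steadiest member, at 42.0, 46.4 and 43.1 FPKM in controls and 41.8, 44.9 and 44.3 FPKM with LPS. Only 3.44% of all genes tested had a smaller SD within groups, and the 95% interval for the ratio was 0.861 to 1.15. The annotated transcript of MT-ND5 alone stood at 15.7, 12.6 and 14.2 FPKM in controls and 12.0, 12.7 and 12.4 FPKM with LPS. In a fit over 35727 transcripts, added after seeing the data, of which 0.098% passed, its log2 change was −0.18 (SE 0.14, limma adjusted p = 0.87) and that of the assembled transcript was 0.080 (SE 0.13, limma adjusted p = 0.93). The gene value thus summed a transcript slightly lower and one slightly higher with LPS, neither past the threshold.

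MT-ND6 (14149 to 14673) is the 1 mRNA on the minus strand. It stood at 7.06, 6.61 and 7.84 FPKM in controls and 4.97, 7.39 and 6.33 FPKM with LPS, with overlap and a log2 change of −0.20 (SE 0.16, limma adjusted p = 0.75). Its level was 5.83% to 9.16% of that of its plus-strand neighbour MT-CYB. Whether the counting used strand is not given in the sources used here.

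The remaining mRNAs were not tested because their levels were low. MT-ND4, a proton-pumping subunit of complex I, stood at 0.384 to 0.523 FPKM over the 6 libraries and MT-ND4L at 0.0584 to 0.104 FPKM. MT-ATP6, the proton channel subunit of ATP synthase, stood at 0.0688 to 0.0877 FPKM. The groups overlapped in all 4, MT-ATP8 included. Together the 13 mRNAs summed to 1208, 1114 and 1331 FPKM in controls and 1075, 1100 and 1257 FPKM with LPS, and MT-CO1 made up 72.1% to 78.2% of that sum. The group means were 1218 ± 109 and 1144 ± 98.8 FPKM (SD, n = 3), a ratio of 0.939, and the groups overlapped. Without MT-CO1 and MT-CO3, a choice made after the values were seen, the other 11 summed to 275, 247 and 266 FPKM in controls. With LPS they summed to 242, 242 and 232 FPKM, a ratio of 0.909 with a small gap between the groups and no test. Their sum includes the assembled transcript counted in MT-ND5, at 26.3 to 33.8 FPKM per library, and the gap without it was not tested.

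Among the tRNAs, 11 of 15 tested had a log2 change above 0 (9 after rescaling to the summed FPKM of all genes), with a median of 0.066, and in none did the groups separate. MT-TT, the threonine tRNA downstream of MT-CYB, stood at 39.6, 36.7 and 43.0 FPKM in controls and 51.7, 34.4 and 61.3 FPKM with LPS. LPS 2 was the lowest and LPS 3 the highest of all 6, and the log2 change was 0.27 (SE 0.20, limma adjusted p = 0.75). MT-TP, the proline tRNA facing it on the minus strand, stood at 9.78, 7.996 and 10.3 FPKM in controls and 9.47, 6.75 and 14.1 FPKM with LPS. MT-TT was 4.05 to 5.46 times MT-TP in every library, and both were lowest in LPS 2 and highest in LPS 3.

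The minus-strand cluster varied widely among the controls. MT-TC, the cysteine tRNA, stood at 29.1, 45.2 and 27.0 FPKM in controls and 34.2, 39.2 and 40.6 FPKM with LPS. MT-TN, the asparagine tRNA, stood at 19.9, 36.8 and 21.5 FPKM and 28.1, 34.1 and 30.1 FPKM. In both, as in MT-TY and MT-TA, control 2 was the highest library and the other controls were the lowest, so the LPS values lay inside the control range. MT-TY stood at 16.1 to 26.7 FPKM and MT-TA at 7.996 to 17.4 FPKM over the 6 libraries. The log2 changes were 0.20 (MT-TC), 0.29 (MT-TN), 0.078 (MT-TY) and 0.28 (MT-TA), with SE between 0.19 and 0.28. Leaving out each library in turn gave 0.063 to 0.43 (MT-TC), 0.12 to 0.56 (MT-TN), −0.048 to 0.31 (MT-TY) and 0.051 to 0.59 (MT-TA). A difference between groups was thus neither shown nor excluded.

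MT-TQ, the glutamine tRNA on the minus strand (4329 to 4400), had the largest log2 change of the tested members, −1.03 (SE 0.36). It stood at 1.66, 2.68 and 1.56 FPKM in controls and 1.596, 0.408 and 0.379 FPKM with LPS. LPS 2 and LPS 3 were below every control, while LPS 1 lay among them. The unadjusted p was 0.024 and the limma adjusted p = 0.47, and over the alternatives it ran from 0.29 (without LPS 1) to 1. It shares 3 bases with MT-TI on the opposite strand. MT-TS1, a serine tRNA on the minus strand, had the next largest, 0.56 (SE 0.29), from 0.575, 0.454 and 0.450 FPKM in controls to 0.557, 1.77 and 0.801 FPKM with LPS.

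Of the tRNAs with a mean between 0.5 and 3 FPKM, the leucine tRNA MT-TL1 ran from 1.44 to 5.48 FPKM and the glycine tRNA MT-TG from 0.626 to 3.87 FPKM. The methionine tRNA MT-TM ran from 0.591 to 2.31 FPKM, MT-TH (histidine) from 0.387 to 1.63 FPKM and MT-TE (glutamate) from 0.593 to 1.69 FPKM. The serine tRNA MT-TS2 ran from 0.344 to 1.58 FPKM and the leucine tRNA MT-TL2 from 0.354 to 0.862 FPKM. Each of these 7 varied at least 2.43-fold between libraries, and their log2 changes lay between −0.22 and 0.25. Their spread within groups leaves room for sizeable differences, since the 95% interval for the ratio of MT-TL1 was 0.576 to 2.44.

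**Figure D5:**
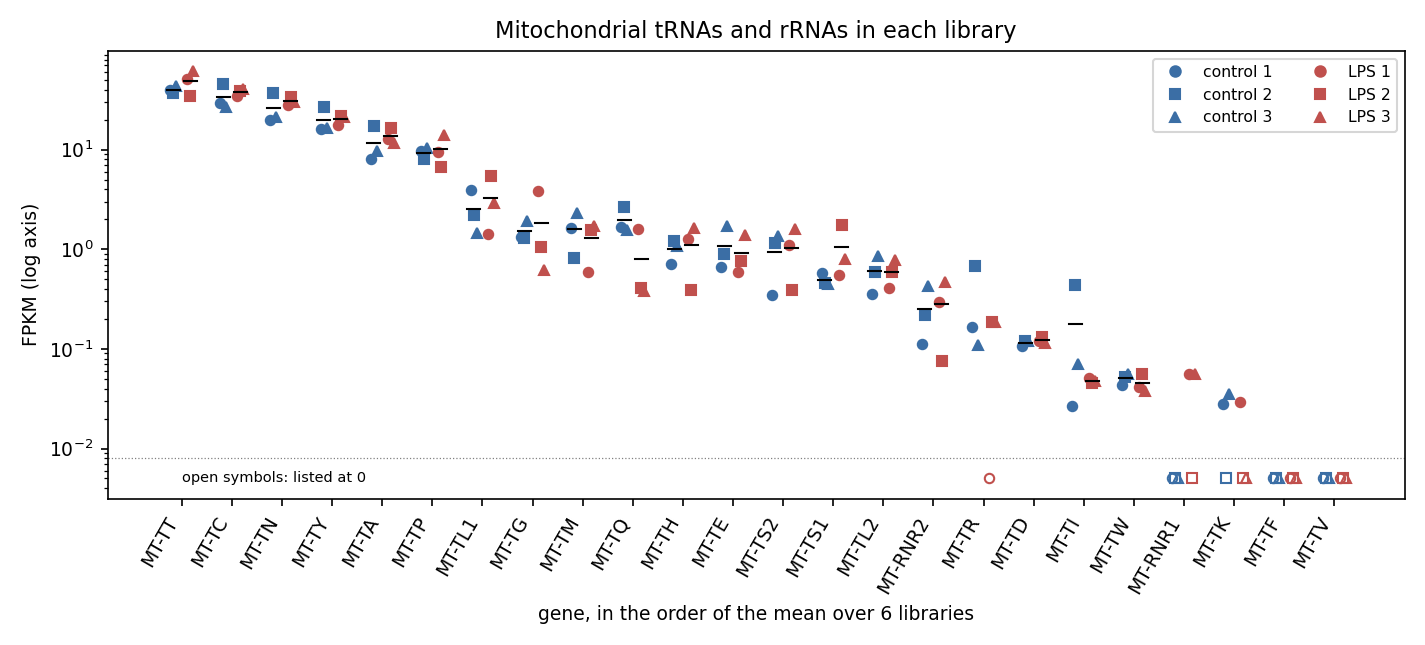
FPKM (log axis) of the 22 tRNAs and 2 rRNAs in each control (blue) and LPS (red) library, black lines for group means where no value is 0, open symbols where a gene is listed at 0. The 6 highest tRNAs stand above 6 FPKM in every library and the others at most at 5.48 FPKM.

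Untested tRNAs were MT-TR, MT-TD, MT-TI, MT-TW, MT-TK, MT-TF and MT-TV, all on the plus strand and listed by name after their values were seen, with values from 0 to 0.678 FPKM. MT-TF and MT-TV, which flank MT-RNR1, were listed at 0 in all 6 libraries. MT-TK was listed at 0 in control 2, LPS 2 and LPS 3 and at 0.0281, 0.0356 and 0.0295 FPKM in control 1, control 3 and LPS 1.

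The rRNAs were scarcely present in the table. MT-RNR1, the small-subunit rRNA, was listed at 0 in the 3 controls and LPS 2 and at 0.0557 and 0.0558 FPKM in LPS 1 and LPS 3. MT-RNR2, the large-subunit rRNA, stood at 0.112, 0.221 and 0.427 FPKM in controls and 0.297, 0.0759 and 0.473 FPKM with LPS. Whether rRNA was removed, or polyadenylated RNA selected, is not given in the sources used here.

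Nuclear copies of mitochondrial sequence can take reads from these genes. Of 407 named copies, 5 reached the level for testing and none passed, where 0.0502% of all genes tested did. MTCO1P12 (chromosome 1, 631074 to 632616) matches MT-CO1 at 98.7% of 1542 aligned bases, with identical runs of up to 293 bases. It stood at 30.2, 21.95 and 20.9 FPKM in controls and 20.1, 22.04 and 27.5 FPKM with LPS, far below MT-CO1. MTND2P28, 98.4% identical to MT-ND2, stood at 2.28, 2.10 and 1.89 FPKM and 1.76, 1.47 and 1.62 FPKM, without overlap (log2 change −0.29, SE 0.15, limma adjusted p = 0.59). The next by level, MTND5P20, stood at 0.596 to 1.10 FPKM. MTATP6P1, named here after its values were seen, is 98.5% identical to MT-ATP6 and had a higher mean (0.660 FPKM) than MT-ATP6 itself (0.0793 FPKM). Levels of these pairs are therefore uncertain.

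The nuclear genes that make and maintain mitochondrial RNA gave no call, where 0.0502% of all genes tested passed. With that share, 0 calls in a list of this size is not a result about its genes. Of 16 genes of mitochondrial DNA transcription and maintenance, 0 passed and the median log2 change was −0.092. The RNA polymerase POLRMT stood at 16.7 ± 0.612 and 18.0 ± 1.08 FPKM (SD, n = 3) in control and LPS libraries, and the packaging and initiation factor TFAM at 3.49 ± 0.264 and 3.32 ± 0.191 FPKM. The most abundant of that list were the protease LONP1 (29.1 ± 3.30 and 30.2 ± 3.59 FPKM) and the DNA polymerase POLG (20.2 ± 2.98 and 17.1 ± 1.23 FPKM).

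Of 31 RNA processing and stability genes, 0 passed (0.0502% of all genes tested did), with 21 below 0 and a median of −0.079. SLIRP and LRPPRC, partners that protect mitochondrial mRNAs, stood at 34.9 ± 4.15 and 25.5 ± 7.62 FPKM and at 26.2 ± 2.95 and 23.1 ± 2.46 FPKM. The log2 changes were −0.49 (SE 0.22, limma adjusted p = 0.56) and −0.18 (SE 0.12, limma adjusted p = 0.72), with overlap in both. The oligoribonuclease REXO2 stood at 39.0, 34.5 and 73.5 FPKM in controls and 34.2, 34.4 and 46.7 FPKM with LPS.

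The nuclear genes of complexes I to IV and ATP synthase were also without a call, 0 of 80 tested, where 0.0502% of all genes tested passed. They include the 4 genes of complex II, which has no mitochondrial subunit, and ATP5IF1, an inhibitor of ATP synthase. Of the 80, 59 had a log2 change below 0, against 51.1% of all genes tested, the median was −0.071, and in 13 the LPS values lay below all controls while in 0 they lay above. Over all genes tested the shares of genes without overlap were 7.76% and 8.13%. At an unadjusted p under 0.05 there were 8 of the 80, near the 9.21% of all genes tested. By complex, the median was −0.081 (complex I, 37 tested), −0.022 (complex II, 4), −0.045 (complex III, 9), −0.046 (complex IV, 12) and −0.22 (ATP synthase, 18). Of the 13 below all controls, 6 were of ATP synthase, 3 of complex I, 3 of complex IV, 1 of complex III and 0 of complex II.

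The 2 most abundant nuclear subunits of each complex had overlapping groups. NDUFS8 of complex I was at 87.4 ± 1.38 and 86.1 ± 10.6 FPKM and NDUFB7 at 75.6 ± 8.43 and 80.95 ± 4.08 FPKM. SDHB and SDHD of complex II were at 44.98 ± 1.31 and 45.4 ± 3.84 FPKM and at 29.8 ± 1.03 and 28.6 ± 3.03 FPKM. In complex III, UQCRC1 was at 104 ± 3.96 and 98.1 ± 4.71 FPKM and CYC1, which works beside MT-CYB, at 51.2 ± 7.86 and 56.5 ± 1.77 FPKM. In complex IV, COX6A1 was at 205 ± 3.64 and 207 ± 7.38 FPKM and COX8A at 152 ± 4.06 and 162 ± 14.5 FPKM. ATP5F1B, the catalytic subunit of ATP synthase, was at 193 ± 22.9 and 169 ± 23.6 FPKM. ATP5F1A stood at 75.0, 149.5 and 74.0 FPKM in controls and 68.4, 133 and 65.2 FPKM with LPS, high in the second library of each group.

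The mitochondrial translation lists gave no call either, where 0.0502% of all genes tested passed. Of 81 tested ribosomal proteins of the organelle 0 passed (median −0.052), with MRPL41 at 83.1 ± 0.374 and 84.0 ± 7.85 FPKM and AURKAIP1 at 65.4 ± 5.79 and 75.3 ± 8.85 FPKM. Of 22 genes that charge the mitochondrial tRNAs, the aminoacyl-tRNA synthetases and the amidotransferase subunits QRSL1, GATB and GATC, 0 passed (median −0.053), with GARS at 181 ± 30.6 and 166 ± 33.7 FPKM and KARS at 37.6 ± 3.41 and 36.9 ± 3.80 FPKM. Biogenesis regulators (7 tested, 0 passed, median 0.080) included the nuclear receptor ESRRA, at 10.2, 9.91 and 8.13 FPKM in controls and 11.9, 10.7 and 11.2 FPKM with LPS, without overlap (log2 change 0.25, SE 0.12, limma adjusted p = 0.59). YY1 was at 12.9 ± 1.65 and 11.2 ± 4.75 FPKM. Genes of mitophagy and mitochondrial dynamics (9 tested, 0 passed, median −0.042) included FIS1 at 75.6 ± 6.498 and 77.8 ± 3.35 FPKM and PINK1 at 37.3 ± 2.60 and 36.5 ± 3.401 FPKM. At an unadjusted p under 0.05 there were 18 of the 246 genes tested on the 11 nuclear lists, against 9.21% of all genes tested.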

How the data were processed

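The authors deposited 5 tables in FPKM, and those for all annotated transcripts, protein-coding genes and all annotated genes were used. The submitters' processing notes list HISAT2 and StringTie, with no versions, and a mouse build, mm9, although the identifiers in the deposited FPKM tables are human and the coordinates GRCh38. Not given in the sources used here were counting strand, filters and rRNA removal.

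Genes averaging 0.5 FPKM or more across libraries were fitted on log2(FPKM + 0.5) by group with limma 3.58.1 in R 4.3.3 (eBayes with a trend), which understates changes of low genes. The procedure was tested on data simulated with independent normal noise and the variances fitted by limma. Such data meet the model by construction, so they cannot show how the test handles shared reads or library-wide shifts. Low values of long single-exon genes were whole multiples of a common step in only 9.48% to 21.3% of cases (tolerance 0.02), so no reads were recovered. At most 0.00814% of nonzero values were identical between 2 libraries. Biopython 1.88 aligned nuclear copies to their mitochondrial genes.

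The members and lists were chosen with earlier results of these data known. All members with a mean of at least 0.5 FPKM, all mRNAs and both rRNAs are named. From each nuclear list the rule takes up to 3 called genes, or else the 2 most abundant, and adds POLRMT, TFAM, LRPPRC and SLIRP, and the 3 most abundant nuclear copies. Of 82 ribosomal protein names 1 was not matched. Markers of 5 cell types were read: erythroid genes were at most 0.345 FPKM, and of 4 leukocyte genes CD14 alone was above 0. Alternatives were pseudocounts of 0.1 and 1, no filter or a minimum of 1 FPKM, 4 rescalings, a replicate block, library weights, robust or untrended eBayes, and leaving out each library. The protein-coding gene table was a further alternative, for the members only.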

Additional observations from a re-analysis of the deposited data

How the results depend on the processing

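No mitochondrial member passed the threshold under any alternative (limma), and no gene of the nuclear lists under any alternative in which they were read. The fit of the protein-coding gene table was read for the members only. The lowest limma adjusted p was 0.29 for the members and 0.21 for named nuclear genes and markers. Over all genes tested, 8 passed, against 5 with a pseudocount of 1 or quantile normalization, and 2 with no filter, with rescaling to the summed FPKM of all genes or without a trend. Leaving out a library gave 1 (without LPS 2) to 7 (without control 3), with 6 without control 1, 3 without control 2 or LPS 3, and 4 without LPS 1. Replicate numbers were shared by the groups, but same-numbered libraries had deviation correlations of 0.026, 0.12 and 0.093, so the numbers were not taken to pair them; each library correlated best with its own number, a hint from the data only. With a replicate block 0 passed, and 1736 had an unadjusted p under 0.05. The median log2 change of the mRNAs was −0.017 with no filter, which takes in all 13, and −0.20 to −0.078 without 1 library at a time. With no filter, the log2 changes of the 9 mRNAs tested in the main fit were unchanged, and the median moved because the 4 low mRNAs joined. The cause of the shifts on leaving out a library was not tested. Summed mRNA kept a ratio under 1, from 0.893 to 0.985. The log2 change had the opposite sign for MT-TH (−0.042) with a pseudocount of 0.1, for MT-TG with a pseudocount of 1 (0.020) or library weights (0.23), and for SDHB (−0.0040) with quantile normalization. Rescaling to the summed FPKM of all genes gave −0.025 for MT-TH, −0.028 for MT-TL2, −0.039 for SDHB, −0.035 for COX6A1, −0.0057 for FIS1 and −0.037 for MRPL41, and library weights gave −0.0030 for MT-TL2, −0.020 for SDHB and −0.016 for MRPL41. Without 1 library at a time, the sign of the log2 change was not kept by MT-CO3 (−0.56 to 1.72), MT-ND5 (−0.036 to 0.035), MT-TE (−0.37 to 0.11), MT-TG (−0.59 to 0.39), MT-TH (−0.25 to 0.39), MT-TL1 (−0.16 to 0.65), MT-TL2 (−0.17 to 0.17), MT-TM (−0.52 to 0.10), MT-TP (−0.20 to 0.30), MT-TS2 (−0.28 to 0.41), MT-TY (−0.048 to 0.31). Among nuclear genes and markers it was not kept by ATP5F1A (−0.49 to 0.17), CDH5 (−0.083 to 0.22), COL1A2 (−0.071 to 0.032), COX6A1 (−0.015 to 0.032), FIS1 (−0.027 to 0.094), GARS (−0.28 to 0.00073), KARS (−0.093 to 0.053), LONP1 (−0.034 to 0.14), MRPL41 (−0.057 to 0.076), MTCO1P12 (−0.19 to 0.10), NDUFS8 (−0.10 to 0.071), PINK1 (−0.093 to 0.040), REXO2 (−0.49 to 0.052), SDHB (−0.037 to 0.080), SDHD (−0.11 to 0.026), VWF (−0.011 to 0.30), YY1 (−0.49 to 0.11). Depth is unknown, so counting error could not be set beside the low values.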
